A study of Mus musculus with 16 samples.

Results

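Foxp3UP and Foxp3DN, the 2 groups of CD8 T cells that carry Foxp3 in their labels, were compared directly. They make up 8 of the 16 libraries of the series, 4 in each group, and were taken by the titles of the samples. All 16 libraries came from OT1 cells, mouse CD8 T cells of the C57BL/6 strain whose transgenic receptor recognises a peptide of ovalbumin. The cells had been transferred into tumour-bearing mice as a mixture of Foxp3UP and Mock cells, and were sorted from the tumours after 5 days as live CD8 cells by CD45.1 and/or CD90.1. The other 8 libraries, 4 of MockUP and 4 of MockDN, carry the same UP and DN marks without Foxp3 in the label and served here as a check on differences between the 2 arms. The meaning of UP and DN is not in the labels, nor how Foxp3 was introduced, which tumour the mice bore, or whether each library came from separate mice. The p-values therefore measure only the spread between these libraries.

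Foxp3 is the forkhead transcription factor that defines regulatory T cells, which restrain other T cells. It raises genes such as Ctla4 and Il10 and holds down others such as Tcf7, acting with partners that include NFAT and Runx proteins. CD8 effector T cells usually lack it and kill target cells with perforin and granzymes. In these cells the transcription factor Myc and signals from the T cell receptor drive ribosome production and the uptake of nutrients.

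Library totals ran from 9557204 to 12120895 counts in Foxp3UP and from 10385347 to 13226590 in Foxp3DN. All 10 defining markers of CD8 T cells on the list used were detected in every library, and edgeR called 0 of them between the groups, with 0 at an unadjusted p under 0.05. The 10 most abundant genes took 7.30% to 8.09% of counts in Foxp3UP and 5.52% to 6.04% in Foxp3DN. Mitochondrial transcripts took 0.435% to 0.619% and 0.455% to 0.602%. Replicates 1 and 2 (sample numbers 1 to 8) stood apart from replicates 3 and 4 (sample numbers 9 to 16) in every group, and values are given within these sets where they bear on a result. In bulk samples, fewer cells of a type and less RNA per cell cannot be told apart.

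Foxp3 itself (ENSMUSG00000039521, chromosome X, 7573644 to 7595245, on build mm10 like all coordinates of genes here) was the first check of the labels. In CPM (counts scaled to a common library size, with TMM factors), it stood at 15.2, 21, 29.5 and 28.7 in Foxp3UP replicates 1 to 4. In Foxp3DN it stood at 10.3, 10.1, 10.4 and 10.2 CPM. All Foxp3UP libraries lay above all Foxp3DN libraries, and the Foxp3DN values sat below the 11 to 14.6 CPM of MockDN and the 11.5 to 13.7 CPM of MockUP. Foxp3 was 2.29-fold higher in Foxp3UP (log2 fold change 1.20 ± 0.17 SE, edgeR adjusted p = 4.03e-04). A two-sided exact permutation test on log2(CPM + 0.5) gave a difference of 1.11 and p = 0.0286, the smallest that 4 against 4 libraries allow. Without any 1 of the Foxp3DN libraries that p was 0.0571. The log2 fold change was 0.81 within replicates 1 and 2 (edgeR adjusted p = 0.128) and 1.47 within replicates 3 and 4 (adjusted p = 4.17e-06). In the Mock cells the same contrast gave -0.05, and the permutation p was 0.686.

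Thy1 (CD90, ENSMUSG00000032011, chromosome 9, 44043384 to 44048579), whose CD90.1 form was among the sorting markers, did not separate the Foxp3 groups as it did the Mock groups. Its level was 53.4, 53, 61 and 58.8 CPM in Foxp3UP and 62.3, 50.6, 72.7 and 62.7 CPM in Foxp3DN. These ranges overlapped, a likeness that was used to choose the contrast and so is given without a test. In MockUP it was 578 to 1180.3 CPM, against 142 to 196 CPM in MockDN (log2 fold change 2.38 ± 0.19 SE, edgeR adjusted p = 4.17e-06).

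Of the 13711 genes tested, 1616 (11.8%) were called between Foxp3UP and Foxp3DN at a Benjamini-Hochberg adjusted p under 0.05 (edgeR quasi-likelihood test). Of these, 823 (6%) were higher in Foxp3UP and 793 (5.78%) lower. Which direction held more calls depended on the setting, with 700 higher and 962 lower when scaled by library totals, 1155 and 1337 with only the 8 Foxp3 libraries, 1179 and 1377 without MockUP 2, and 1582 and 1858 within replicates 3 and 4. A change of at least 2-fold was seen in 246 of the higher and 103 of the lower genes. The libraries of the 2 groups did not overlap for 1550 of the called genes, and for 3139 (22.9%) of all genes. MockUP against MockDN gave 1 call (0.00729%), which was Thy1, with 433 genes (3.16%) at an unadjusted p under 0.05 and 253 (1.85%) without overlap. DESeq2 called 8 in that contrast.

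The median size of log2 fold change over all genes was 0.231 between the Foxp3 groups and 0.108 between the Mock groups. Of the 1616 called genes, 8 differed at least 2-fold between the Mock groups in the same direction, and 31 had Mock libraries that did not overlap in that direction. The difference of the effects, Foxp3UP minus Foxp3DN less MockUP minus MockDN, was tested in the same fit. It called 251 genes (1.83%), 132 higher (0.963%) and 119 lower (0.868%). Scaling by library totals gave 114 higher and 187 lower, and a block of arm and replicate number together gave 1739 calls, 895 higher and 844 lower. The median SE of a log2 fold change was 0.18 for the direct contrast and 0.25 for this difference. The plots of log2 fold change against level show both contrasts.

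**Figure D1:**
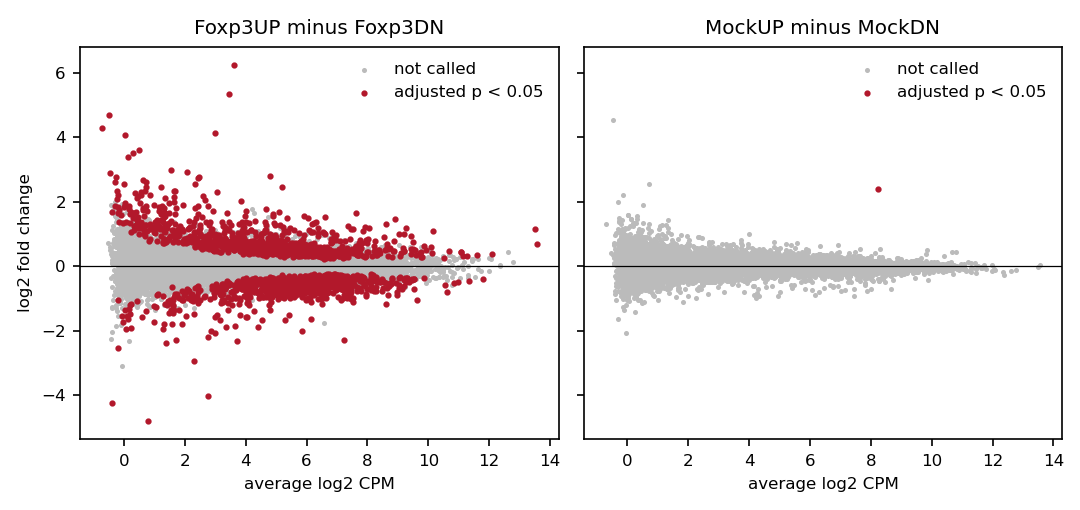
Log2 fold change (vertical axis) against average log2 CPM (horizontal axis) of the 13711 genes tested, for Foxp3UP minus Foxp3DN (left) and MockUP minus MockDN (right); each point is a gene, and red points have an edgeR adjusted p under 0.05. There are 1616 red points on the left and 1, Thy1, on the right.

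The number of calls depended on the libraries used. It was 842 without Foxp3DN 3, 947 without Foxp3UP 1, 979 without Foxp3DN 4 and 2556 without MockUP 2. MockUP 2 stood apart on the second principal component and enters the direct contrast through the gene filter, the scaling and the estimate of spread. With the replicate number as a block the number of calls was 2755 of 13711 genes tested (1503 higher and 1252 lower), and 811 for the difference of effects. Taken alone, replicates 1 and 2 gave 130 calls of 14006 genes tested, and replicates 3 and 4 gave 3440 of 13647. The counts of list members given below for other fits belong beside these counts over all genes, not beside the 11.8% of the main fit. The sets shared 115 calls, 88.5% of the first list and 3.34% of the second, and all 115 had the same direction. Over the 13441 genes tested in both sets, called or not, the median size of log2 fold change was 0.247 in the first set and 0.263 in the second. The median SE over all genes was 0.23 and 0.15.

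Among called genes without overlap whose average log2 CPM reached 1, the largest rise was that of Mmp9 (ENSMUSG00000017737, chromosome 2, 164940780 to 164955850), the gelatinase that cleaves collagen of basement membranes. Its level was 40.1, 24.2, 71.2 and 50.2 CPM in Foxp3UP. In Foxp3DN it was 0.645, 0.370, 0.840 and 0.581 CPM, or 5 to 10 counts per library. Every Foxp3UP library was far above every Foxp3DN library, and the MockUP and MockDN libraries lay at 0.737 to 1.21 and 0.574 to 1.82 CPM. Mmp9 differed 75.5-fold between the groups (log2 fold change 6.24 ± 0.38 SE, edgeR adjusted p = 6.07e-08). The log2 fold change was 5.98 in replicates 1 and 2 and 6.35 in replicates 3 and 4. Ccr3 (ENSMUSG00000035448, chromosome 9, 124021972 to 124031689), the eotaxin receptor known from eosinophils, followed with 23.6, 21.8, 67.2 and 54.2 CPM in Foxp3UP. Its Foxp3DN libraries held 0.921, 0.740, 1.51 and 0.872 CPM, from 9 to 18 counts. Here too there was no overlap, and replicates 3 and 4 of Foxp3UP were higher than replicates 1 and 2 (log2 fold change 5.35 ± 0.43 SE, edgeR adjusted p = 8.78e-07).

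Il10 (ENSMUSG00000016529, chromosome 1, 131019845 to 131024974), the anti-inflammatory cytokine of regulatory T cells, stood at 21.9, 14.3, 35.6 and 30.6 CPM in Foxp3UP. Foxp3DN held 1.66, 1.48, 1.34 and 1.26 CPM. The ranges were far apart (log2 fold change 4.14 ± 0.40 SE, edgeR adjusted p = 6.86e-06), while the Mock groups overlapped at 0.949 to 3.96 and 0.668 to 2.73 CPM. Maf, a transcription factor that activates Il10, stood at 12.7, 9.89, 16.4 and 14 CPM against 2.95, 2.29, 1.43 and 2.33 CPM. Its groups did not overlap either (log2 fold change 2.56 ± 0.22 SE, edgeR adjusted p = 1.45e-06). Tnfrsf8 (CD30), a receptor of the tumour necrosis factor family, was at 4.23 to 9.16 CPM in Foxp3UP and 0.553 to 1.26 CPM in Foxp3DN (log2 fold change 2.97 ± 0.37 SE, edgeR adjusted p = 9.34e-05).

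The other genes among the 10 largest rises serve varied roles. Cysltr1, a receptor for cysteinyl leukotrienes, had a log2 fold change of 2.93 ± 0.38 SE, with 8.92 to 10.9 CPM against 0.925 to 1.85. Atp6v0d2, a membrane subunit of the vacuolar proton pump, stood at 11.5, 18.5, 16 and 10.3 CPM in Foxp3UP and 2.03, 1.92, 1.93 and 2.42 CPM in Foxp3DN. The rise of Atp6v0d2 (log2 fold change 2.76 ± 0.22 SE, edgeR adjusted p = 8.78e-07) went with a log2 difference of -0.54 in the Mock cells. Neb, which encodes the muscle protein nebulin, was at 56.2 to 95.1 against 7.06 to 13.6 CPM (2.79 on the log2 scale). Cdh17, a cadherin, was at 7.49 to 19.1 against 0.504 to 3.04 CPM (2.72), and Ehd2, a membrane-shaping ATPase, at 3.31 to 6.26 against 0.368 to 1.36 CPM (2.46). The libraries of the 2 groups did not overlap for any of them, a condition of their choice.

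Among falls taken by the same rule, that of Cd163l1 was the deepest (ENSMUSG00000025461, chromosome 7, 140218267 to 140231145), a scavenger receptor of the cysteine-rich family. It stood at 10.6, 9.77, 8.74 and 9.79 CPM in Foxp3DN and at 0.705, 0.249, 0.501 and 0.976 CPM in Foxp3UP. The Foxp3UP values rest on 3 to 9 counts per library, and no library overlapped (log2 fold change -4.01 ± 0.27 SE, edgeR adjusted p = 1.42e-07). Both Mock groups were close to Foxp3DN, at 5.62 to 9.59 and 6.54 to 8.89 CPM. Tcf7 (ENSMUSG00000000782, chromosome 11, 52252371 to 52283014), which encodes TCF-1, which naive and self-renewing T cells need, stood at 240.5, 220.1, 196 and 191 CPM in Foxp3DN. In Foxp3UP it was 37, 56, 43.4 and 38.9 CPM. Every Foxp3UP library held less than any Foxp3DN library (log2 fold change -2.27 ± 0.15 SE, edgeR adjusted p = 1.42e-07), and the Mock difference was -0.08. The fall of Tcf7 was -2.31 in replicates 1 and 2 and -2.25 in replicates 3 and 4.

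Members of the tumour necrosis factor system were among the other deep falls. Tnfsf8, the ligand of CD30, was at 8.72 to 26 CPM in Foxp3UP and 55.9 to 92.9 CPM in Foxp3DN (log2 fold change -2.0 ± 0.35 SE, edgeR adjusted p = 0.00236). Its receptor Tnfrsf8 had moved the other way. Tnfrsf25 (DR3), another receptor of the family, was at 0.602 to 0.998 against 3.28 to 4.60 CPM (-2.28 on the log2 scale). Trat1, an adaptor of the T cell receptor complex, fell by 1.88 on the log2 scale, with 2.99 to 5.21 CPM against 11.8 to 15.9. The remaining genes of the 10 deepest falls were Tuba8 (-2.39), Pou6f1 (-2.31), Oaf (-2.18), Prr5l (-2.08) and Tdrp (-2.01), again as log2 fold changes.

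The difference of effects had its strongest support at Mmp9 (6.59, edgeR adjusted p = 1.47e-05), Cd163l1 (-4.01, adjusted p = 1.36e-05), Atp6v0d2 (3.30, adjusted p = 2.71e-05), Tcf7 (-2.19, adjusted p = 2.33e-05) and Gm2a (1.16, adjusted p = 1.99e-05), as log2 differences. Gm2a, a lysosomal activator of ganglioside breakdown, stood at 993, 890.4, 959.6 and 886 CPM in Foxp3UP and 452, 486, 486 and 458 CPM in Foxp3DN. The Foxp3DN range overlapped those of MockUP and MockDN, 424 to 468 and 478 to 517 CPM. The comparisons with each arm's own Mock group share libraries with the direct contrast and are set beside it only as values. Mmp9 was 5.61 in Foxp3UP minus MockUP and -0.98 in Foxp3DN minus MockDN on the log2 scale. The same pair of values was 6.17 and 0.72 for Ccr3, 3.28 and -0.25 for Il10, -1.94 and 0.25 for Tcf7, and -3.70 and 0.31 for Cd163l1.

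**Figure D2:**
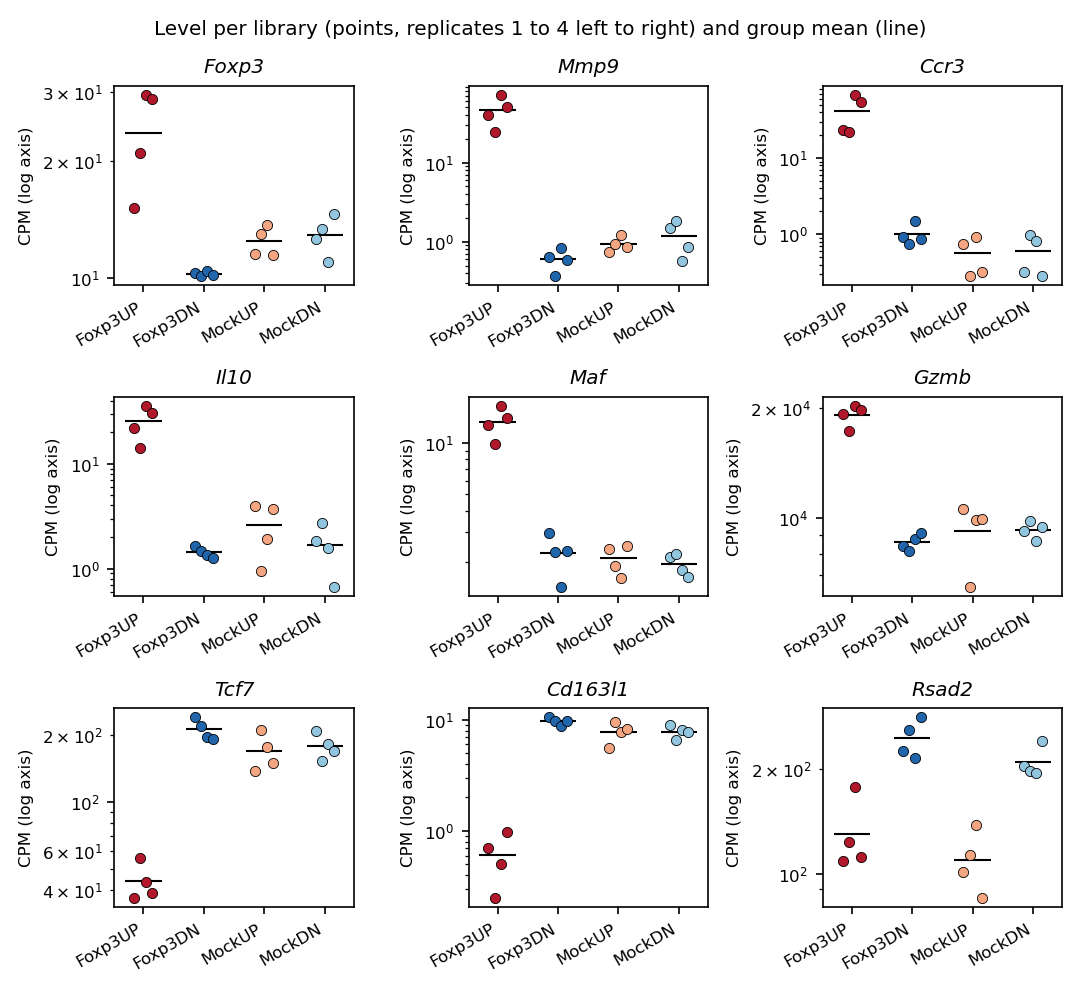
Level of 9 genes in each library (points, replicates 1 to 4 from left to right within a group) with the group mean (line), in CPM on a log axis, for Foxp3UP, Foxp3DN, MockUP and MockDN. Foxp3UP stands apart from the other 3 groups for Mmp9, Ccr3, Il10, Maf, Gzmb, Tcf7 and Cd163l1, while for Rsad2 both UP groups lie below both DN groups.

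Among genes known from regulatory T cells, rises outnumbered falls, and 61.1% of those tested were called, against 11.8% of all genes. Of the 36 of 40 listed genes, Foxp3 included, that passed the filter, 20 were called higher and 2 lower, with a median log2 fold change of 1.00 against 0.015 over all genes and 0.01 for the list in the Mock contrast. Besides Il10, Maf, Tnfrsf8 and Foxp3 they included Fgl2, a secreted fibrinogen-like protein (log2 fold change 1.22 ± 0.11 SE, edgeR adjusted p = 5.07e-06), at 394 to 470.2 CPM against 157 to 215. Ctla4, the receptor that competes with CD28 for its ligands, stood at 1648, 1777, 1796 and 2243 CPM in Foxp3UP and 971, 846, 787 and 892 CPM in Foxp3DN (log2 fold change 1.09 ± 0.12 SE, edgeR adjusted p = 4.41e-05). Klrg1, an inhibitory lectin of effector cells, was at 11.1 to 14.6 against 1.93 to 4.26 CPM (log2 fold change 1.87 ± 0.27 SE, edgeR adjusted p = 3.43e-04). Izumo1r, the folate receptor 4 (2.05), Itgae, the CD103 integrin chain (1.54), Entpd1, the CD39 ectonucleotidase (1.54), and Lrrc32, which presents latent TGF-beta (1.12), were also higher on the log2 scale. Cd83 (-1.10) and Ccr8 (-0.85) were lower. Within replicates 1 and 2, calls were 11 higher and 0 lower, and within replicates 3 and 4, 29 and 3.

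Of 14 of 17 tested genes known to be repressed in regulatory T cells, 6 fell and 1 rose. The share called was 50%, against 11.8% of all genes, and the median was -0.45. Tcf7, Tnfsf8, Trat1 and Cd40lg led. Cd40lg, the CD40 ligand of helper T cells, was at 4.01 to 8.19 CPM against 17.5 to 23.6 (log2 fold change -1.58 ± 0.21 SE, edgeR adjusted p = 1.89e-04). Lef1, a relative of Tcf7, was the exception, at a log2 fold change of 0.48 (edgeR adjusted p = 0.00770). In replicates 1 and 2 taken alone the counts were 0 and 4, and in replicates 3 and 4 2 and 7. Of 19 of 20 listed partner factors of Foxp3, 0 were called by edgeR (2 higher and 2 lower at an unadjusted p under 0.05), 2 lower with the replicate block, 1 lower by DESeq2, 1 in each direction without MockUP 2, 2 lower without MockUP 1, and 1 lower without MockUP 4, MockDN 2 or MockDN 3. None were called within replicates 1 and 2, while 4 were higher and 3 lower within replicates 3 and 4, and 1 and 3 with a term for the sets. Their fold changes ran from -0.60 for Stat5a (edgeR adjusted p = 0.0902) to 0.38 for Foxo1 (edgeR adjusted p = 0.0797), on the log2 scale.

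Receptors that guide cells into tissue shifted in both directions. Of 26 of 28 chemokine and homing receptors tested, 8 were higher and 3 lower (42.3% called, against 11.8% of all genes). The list median was 0.15. Ltb4r1, the leukotriene B4 receptor, was at 58.8 to 83.3 against 18.9 to 23.5 CPM (log2 fold change 1.69 ± 0.20 SE, edgeR adjusted p = 6.08e-05). Ccr2, which guides cells to CCL2, stood at 1029, 935, 1303 and 1179.7 CPM in Foxp3UP and 550.3, 617, 534 and 597 CPM in Foxp3DN (log2 fold change 0.95 ± 0.11 SE, edgeR adjusted p = 6.89e-05). Ccr4 (1.48) and Ccr1 (1.15) rose as well, as log2 fold changes. Cx3cr1, the fractalkine receptor, fell by 1.5 (adjusted p = 6.46e-04), and S1pr5, which carries effector cells out of tissue, was lower too (adjusted p = 0.0156), with 0 to 0.108 CPM against 0.184 to 1.94, so that its fold rests on few counts. The counts of higher and lower members were 3 and 1 in replicates 1 and 2 and 12 and 5 in replicates 3 and 4.

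Of 16 of 17 integrin chains tested, 5 were higher and 2 lower (43.8% called, against 11.8% of all genes). Itgb1, the beta chain of the very late antigens, stood at 454, 493, 481 and 481 CPM in Foxp3UP and 981, 1055, 1009 and 929 CPM in Foxp3DN. Itgb7, the chain that pairs with Itgae, stood at 627, 537, 604 and 599 CPM and 310.3, 336, 312 and 291 CPM. Both separated the groups in every library, Itgb1 downwards (log2 fold change -1.06 ± 0.09 SE, edgeR adjusted p = 1.09e-06) and Itgb7 upwards (log2 fold change 0.92 ± 0.08 SE, edgeR adjusted p = 1.45e-06). Itgax, the CD11c chain, fell by 1.51 on the log2 scale (edgeR adjusted p = 2.91e-04). Replicates 1 and 2 alone gave 1 higher and 1 lower members, and replicates 3 and 4 gave 10 and 2. The counts became 8 and 2 with the replicate block, 3 and 2 without Foxp3DN 4.

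The share called of 15 of 21 genes of matrix remodelling tested was 60%, against 11.8% of all genes. The median was 0.78 against 0.05 in the Mock contrast, and 8 members were higher and 1, the urokinase receptor gene Plaur, lower. Beside Mmp9 these were Ecm1 (log2 fold change 1.71 ± 0.26 SE, edgeR adjusted p = 5.13e-04), a matrix glycoprotein, Adam8, a membrane metalloprotease (log2 fold change 0.68 ± 0.10 SE, edgeR adjusted p = 4.12e-04), Sdc4 (2.14), Spp1 (1.66), Timp2 (1.44), Mmp14 (1.17) and Lgals1 (0.78). Timp2 and Mmp14 had Mock differences of 0.90 and 0.53. By replicate set, 3 were higher and 0 lower in replicates 1 and 2, and 9 and 1 in replicates 3 and 4. Higher and lower members came to 5 and 0 without Foxp3UP 1, Foxp3DN 3 or Foxp3DN 4, 6 and 0 without Foxp3UP 2, Foxp3UP 3, Foxp3UP 4 or MockDN 4, 7 and 0 without Foxp3DN 1.

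Of 21 of 22 cytotoxic effector genes tested, 3 were higher and 0 lower (14.3% called, against 11.8% of all genes), and the median of the list was -0.06. Gzmb, which encodes granzyme B, stood at 19205, 17243, 20229 and 19741 CPM in Foxp3UP. In Foxp3DN it was 8382, 8163, 8799 and 9136 CPM. Every Foxp3UP library exceeded every Foxp3DN library and every Mock library, which held at most 10607 CPM (log2 fold change 1.15 ± 0.13 SE, edgeR adjusted p = 4.29e-05). Prf1, the pore protein perforin, was at 1081, 849, 691 and 677 CPM against 378, 384, 205 and 236 CPM (log2 fold change 1.45 ± 0.30 SE, edgeR adjusted p = 0.00498). It was higher in replicates 1 and 2 than in replicates 3 and 4 of both groups. Gzmk was at 78.9 to 114 against 45 to 56.7 CPM (0.96 on the log2 scale). With the replicate block 3 members were higher and 5 lower, within replicates 1 and 2 these were 1 and 0, and within replicates 3 and 4 they were 3 and 5. The counts became 3 and 1 without Foxp3UP 3 or Foxp3DN 2, and 3 and 2 without MockUP 2.

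Among 21 of 27 secreted cytokines and chemokines tested, 4 were higher and 2 lower (28.6% called, against 11.8% of all genes). Il10 led, followed on the log2 scale by Csf1 (1.06), Tgfb3 (0.94) and Ltb, which encodes lymphotoxin beta (0.59). Cxcl10, an interferon-induced chemokine, was lower (log2 fold change -1.04 ± 0.19 SE, edgeR adjusted p = 0.00203), and it was also lower in MockUP than in MockDN by 0.73 (adjusted p = 0.600). Lif was lower as well (-1.13). The first set alone, replicates 1 and 2, gave 1 higher and 3 lower, and the second, replicates 3 and 4, 8 and 7. Calls in the 2 directions came to 6 and 5 with the replicate block or without MockUP 2, 2 and 1 without Foxp3UP 1, Foxp3UP 2, Foxp3DN 3 or Foxp3DN 4, 3 and 1 without Foxp3UP 3, Foxp3UP 4 or MockDN 4, 4 and 1 without Foxp3DN 2 or MockDN 3, 3 and 4 without MockUP 1, 5 and 4 without MockUP 4.

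Inhibitory and exhaustion genes did not move one way. Of 24 of 26 tested, 6 were higher and 4 lower (41.7% called, against 11.8% of all genes). Ctla4, Entpd1, Cd200r1 (1.22), Pdcd1lg2 (0.91), Havcr2, which encodes TIM-3 (0.72), and Cd101 (0.49) rose. Btla, an inhibitory receptor of the CD28 family, was at 9.69 to 16.9 against 28.8 to 34 CPM (log2 fold change -1.19 ± 0.19 SE, edgeR adjusted p = 8.54e-04). The 3 orphan nuclear receptors Nr4a1, Nr4a2 and Nr4a3, induced by the T cell receptor, made up the rest of the falls. Nr4a2 was at 266, 349, 330.5 and 355 CPM in Foxp3UP and 672, 530.4, 621 and 581 CPM in Foxp3DN (log2 fold change -0.89 ± 0.13 SE, edgeR adjusted p = 4.76e-04). Within replicates 1 and 2, calls were 2 higher and 1 lower, and within replicates 3 and 4, 10 and 6.

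Of 22 of 22 genes of naive, memory and stem-like cells, 5 fell and 2 rose (31.8% called, against 11.8% of all genes). Id3, which holds E proteins inactive, was at 7.49, 9.98, 9.32 and 10.4 CPM in Foxp3UP and 23.5, 24.1, 34.8 and 34.6 CPM in Foxp3DN (log2 fold change -1.65 ± 0.19 SE, edgeR adjusted p = 5.57e-05). Bach2, a repressor of effector differentiation, was at 24.1 to 46.7 against 71.3 to 92.7 CPM (log2 fold change -1.11 ± 0.19 SE, edgeR adjusted p = 0.00155). Slamf6, another marker of stem-like cells, went up (1.06, edgeR adjusted p = 0.00380), as did Lef1. In replicates 1 and 2 taken alone the counts of higher and lower members were 0 and 3, and in replicates 3 and 4 5 and 8. Without MockUP 2 they were 5 and 6, with a term for the sets 4 and 7, and with only the 8 Foxp3 libraries 4 and 6. Of 19 of 20 transcription factors of effector cells, 3 rose and 3 fell (31.6% called, against 11.8% of all genes). Prdm1, which encodes Blimp-1, the factor of terminal effector cells, was at 126, 130.4, 131 and 130.1 CPM against 70.1, 65.4, 55.7 and 63.5 CPM (log2 fold change 1.02 ± 0.13 SE, edgeR adjusted p = 9.34e-05). Ikzf2, which encodes Helios, was 0.78 higher on the log2 scale, and Tbx21, which encodes T-bet, -0.38 (adjusted p = 0.0103). The counts of higher and lower members were 2 and 0 in replicates 1 and 2 and 4 and 7 in replicates 3 and 4. With other fits the counts were 3 and 6 with the replicate block, 3 and 1 without Foxp3UP 1 or Foxp3DN 3, 3 and 5 without MockUP 1, 4 and 5 without MockUP 2.

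Genes induced at once by receptor signals stood lower. Of 24 of 24 immediate-early genes, 9 fell and 0 rose (37.5% called, against 11.8% of all genes). The list median was -0.45 against -0.02 in the Mock contrast. Nr4a3 was at 36.3, 63.4, 60.7 and 63 CPM in Foxp3UP and 117, 99, 116 and 113 CPM in Foxp3DN (log2 fold change -1.0 ± 0.19 SE, edgeR adjusted p = 0.00260). Foxp3UP 1 was the lowest of its group. Egr3 (-0.93), Egr2 (-0.70), Egr1 (-0.59), Fosb (-1.04), Dusp2 (-0.46) and Myc (-0.81, edgeR adjusted p = 0.00805) fell on the log2 scale. Replicates 1 and 2 alone gave 0 higher and 0 lower members, and replicates 3 and 4 gave 0 and 11. Other fits called 1 member higher, with 1 and 11 under the replicate block, 1 and 12 with a term for the sets, and 1 and 9 by DESeq2. Of 26 of 27 genes of the T cell receptor and co-stimulation, 3 were called (11.5%, against 11.8% of all genes), all higher, namely Tnfrsf4 (OX40, 1.16), Icos (1.0) and the receptor zeta chain Cd247 (0.34). Cd247 lost its call without Foxp3UP 1 or 3 or Foxp3DN 1, 2 or 4. By replicate set, 0 were higher and 0 lower in replicates 1 and 2, and 8 and 1 in replicates 3 and 4. These counts changed to 5 and 2 with the replicate block.

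Of the 33 function lists, ribosome biogenesis had the largest share of members called lower. Of 29 of 29 genes of ribosome biogenesis, 27 were called lower and 0 higher, against 5.78% of all genes called lower. For 28 of them the Foxp3UP libraries lay wholly below the Foxp3DN libraries, as for 11.2% of all genes. The median log2 fold change was -0.69, and it was 0.00332 between the Mock groups. Nop2, an RNA methyltransferase of the nucleolus, stood at 66.8, 84.1, 80.1 and 86.9 CPM in Foxp3UP and 136, 140.4, 178 and 158 CPM in Foxp3DN (log2 fold change -0.95 ± 0.14 SE, edgeR adjusted p = 4.30e-04). All Foxp3UP libraries were below all Foxp3DN libraries, and the Mock libraries ranged from 108 to 180.0 CPM. Wdr43, of the small-subunit processome, was at 193 to 232 against 323 to 361 CPM (log2 fold change -0.65 ± 0.10 SE, edgeR adjusted p = 5.75e-04), and Nop14, of the same complex, at 39.8 to 46.4 against 66 to 83.7 CPM (log2 fold change -0.73 ± 0.11 SE, edgeR adjusted p = 5.26e-04). Polr1b, a subunit of RNA polymerase I, had a log2 fold change of -1.03. Gnl3 (nucleostemin, -0.96), Fbl (fibrillarin, -0.75), Npm1 (nucleophosmin, -0.71) and Ncl (nucleolin, -0.59) fell as well. The difference of effects called 8 members lower. The first set alone, replicates 1 and 2, gave 0 higher and 2 lower, and the second, replicates 3 and 4, 0 and 29. Of 30 of 30 cytosolic ribosomal protein genes, 0 were called by edgeR or DESeq2 (5 lower at an unadjusted p under 0.05), with a median of -0.36 and log2 fold changes below 0 for all 30. With the replicate block 2 were lower, within replicates 3 and 4 all 30 were, and without MockUP 2 (mean deviation of the list -0.82 in log2 CPM), 9 were.

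Myc binds E-boxes with the letters CACGTG, which many genes of ribosome biogenesis carry near their start, so promoters in RefSeq (build GRCm38.p6, 250 bases before to 50 after a start) were searched on both strands. Of 24 list members with a promoter in that table, 5 (20.8%) held the motif. It was found in 117 of 607 genes called lower (19.3%), 61 of 593 called higher (10.3%) and 1107 of 9374 genes tested (11.8%). Of the 5 list members, only Nop2 held a match that lay wholly before the start. The promoter of Nop2 (chr6:125131633-125131882, forward strand) is shown from 250 bases before its start, with the motif, which begins 60 bases before the start, in capitals.

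Nop2: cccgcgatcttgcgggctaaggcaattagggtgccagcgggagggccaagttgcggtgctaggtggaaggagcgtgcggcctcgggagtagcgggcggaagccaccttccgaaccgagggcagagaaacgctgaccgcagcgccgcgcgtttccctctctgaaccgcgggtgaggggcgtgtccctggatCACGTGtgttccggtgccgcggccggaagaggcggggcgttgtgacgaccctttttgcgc

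The same table gave 3.04% of all genes, 4.55% of those called higher and 2.64% of those called lower with the forkhead motif TGTTTAC on either strand, as a description only.

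Interferon response genes differed between the arms in the Mock cells as well. Between the Foxp3 groups 17.1% of them were called, against 11.8% of all genes. Of 35 of 35 tested, 5 were lower and 1 higher in Foxp3UP, with a median of -0.10, while between MockUP and MockDN the median was -0.40, 20 of 35 members had no overlap downwards (1.85% of all genes had none in either direction), 25 had an unadjusted p under 0.05 downwards and 0 were called by edgeR. Rsad2, which encodes the antiviral protein viperin, stood at 109, 123, 177 and 112 CPM in Foxp3UP and 226, 258, 215 and 282 CPM in Foxp3DN. In MockUP it stood at 101, 113, 138 and 85.1 CPM and in MockDN at 204, 197, 195 and 240.2 CPM. Both UP groups lay wholly below both DN groups. The log2 fold change was -0.91 ± 0.16 SE in the Foxp3 cells (edgeR adjusted p = 0.00163) and -0.93 ± 0.16 SE in the Mock cells (adjusted p = 0.128), and their difference was 0.02 ± 0.22 SE.

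Ifit3 (-0.89 in the Foxp3 and -0.69 in the Mock cells), Ifit3b (-1.03 and -0.73), Ifit1 (-0.57 and -0.76) and Mx1 (-0.49 and -0.46) had values below 0 in both. Ifit3 and Ifit3b are close copies whose reads may be shared. Gbp3, a guanylate-binding protein, was the member that rose (0.45 and -0.11). Isg15 (-0.17 and -0.80) and Oas2 (-0.24 and -0.90) had larger values between the Mock groups, without a call in either. The replicate sets differed here. Within replicates 1 and 2, calls were 0 higher and 4 lower, and within replicates 3 and 4, 5 and 0. Within replicates 3 and 4 the log2 fold change of Rsad2 was -0.80 (edgeR adjusted p = 0.195), against -1.07 within replicates 1 and 2 (adjusted p = 0.0142). Other fits gave 3 and 6 with the replicate block, 1 and 3 without Foxp3UP 1, Foxp3UP 4, Foxp3DN 1, Foxp3DN 2 or Foxp3DN 4, 2 and 3 without Foxp3UP 2, 1 and 8 without Foxp3UP 3, 3 and 5 without MockUP 2.

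The factors that interferon activates bind an element of the letters GAAA, any 2 bases, and GAAA again. It was found on either strand in the RefSeq promoters of 15 of 24 list members (62.5%), 368 of 9374 genes tested (3.93%), 26 of 607 called lower (4.28%) and 17 of 593 called higher (2.87%). The sequences are shown to set the elements of 4 genes side by side. Of these, 3 had values below 0 in both the Foxp3 and the Mock contrast, where 0 members of the list were called between the Mock groups. The other, Gbp3, was above 0 between the Foxp3 groups only. The sequences run from 250 bases before each start, 5′ to 3′ on the gene's strand, with matches in capitals. They lie at chr12:26456453-26456702, reverse strand for Rsad2, chr19:34640639-34640888, forward strand for Ifit1, chr19:34583279-34583528, forward strand for Ifit3 and chr3:142559794-142560043, forward strand for Gbp3, on build GRCm38.p6. Rsad2 has 1 match and the others 2 each, and those of Gbp3 overlap.

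Rsad2: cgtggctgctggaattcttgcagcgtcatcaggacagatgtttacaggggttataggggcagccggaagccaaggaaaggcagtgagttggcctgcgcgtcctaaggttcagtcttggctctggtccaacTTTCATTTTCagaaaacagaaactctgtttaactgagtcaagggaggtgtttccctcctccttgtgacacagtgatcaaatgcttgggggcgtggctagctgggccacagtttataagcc
Ifit1: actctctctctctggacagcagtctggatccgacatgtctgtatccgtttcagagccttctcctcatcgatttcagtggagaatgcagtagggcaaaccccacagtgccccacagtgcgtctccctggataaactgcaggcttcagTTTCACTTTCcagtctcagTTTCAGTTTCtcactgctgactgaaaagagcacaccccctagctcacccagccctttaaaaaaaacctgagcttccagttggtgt
Ifit3: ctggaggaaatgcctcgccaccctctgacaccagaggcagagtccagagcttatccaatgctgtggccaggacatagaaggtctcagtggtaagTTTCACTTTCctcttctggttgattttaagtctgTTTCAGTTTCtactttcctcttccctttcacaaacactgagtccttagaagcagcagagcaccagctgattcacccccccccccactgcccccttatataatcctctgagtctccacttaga
Gbp3: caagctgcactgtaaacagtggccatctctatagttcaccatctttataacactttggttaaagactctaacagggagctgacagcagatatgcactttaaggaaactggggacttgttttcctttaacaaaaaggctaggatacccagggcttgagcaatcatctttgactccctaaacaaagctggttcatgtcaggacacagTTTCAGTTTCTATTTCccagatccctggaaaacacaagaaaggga

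**Figure D3:**
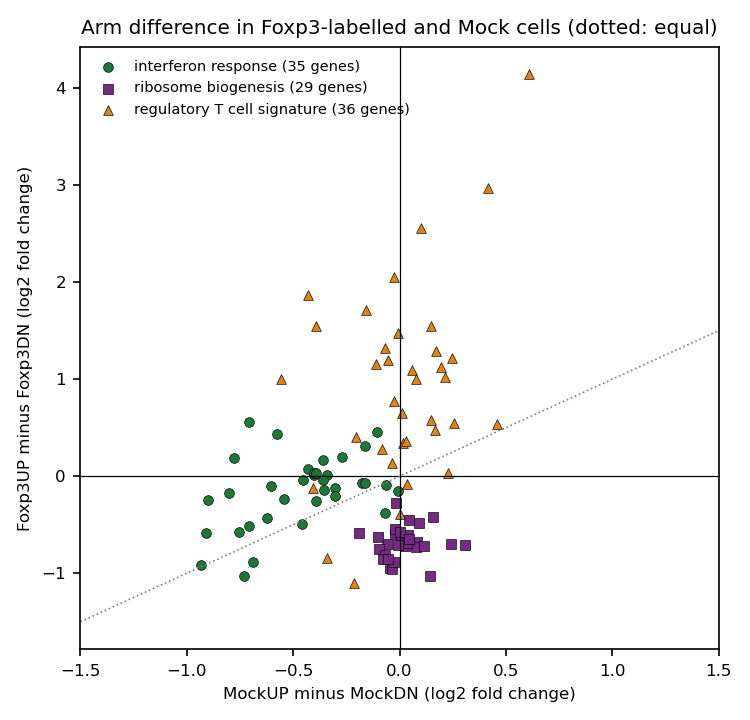
Log2 fold change of Foxp3UP minus Foxp3DN (vertical axis) against MockUP minus MockDN (horizontal axis) for single genes of 3 lists; the dotted line marks equal values. The 29 ribosome biogenesis genes lie near 0 on the horizontal axis and below 0 on the vertical axis, and most of the 35 interferon genes lie left of 0, with Rsad2 and Ifit3 near the dotted line.

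Genes of energy metabolism were called in both directions. Of 25 of 25 glycolysis genes, 5 rose and 2 fell (28% called, against 11.8% of all genes), with a median of 0.22. Aldoc, an aldolase, was at 67.7, 51.1, 56.2 and 51.6 CPM in Foxp3UP and 25.7, 23.6, 17.9 and 21.4 CPM in Foxp3DN (log2 fold change 1.35 ± 0.17 SE, edgeR adjusted p = 1.23e-04). Gpi1 (0.40), Gapdh (0.40), Pkm (0.34) and Aldoa (0.32) rose by less than 0.5 on the log2 scale. The lactate carrier Slc16a1 (-0.76) and hexokinase 2, Hk2 (-0.62), fell. In replicates 1 and 2 taken alone the counts were 1 and 0, and in replicates 3 and 4 6 and 3. The counts became 8 and 2 with the replicate block, 2 and 1 without Foxp3UP 1 or Foxp3DN 1, 2 and 2 without Foxp3UP 2, Foxp3DN 2 or Foxp3DN 4, 4 and 1 without Foxp3UP 3, 5 and 1 without Foxp3UP 4, 3 and 1 without Foxp3DN 3. Of 21 of 22 hypoxia genes, 4 rose and 2 fell (28.6% called, against 11.8% of all genes). Bnip3, a mitophagy receptor, was at 319.9 to 498 against 171 to 214 CPM (log2 fold change 1.11 ± 0.18 SE, edgeR adjusted p = 9.82e-04), against a Mock difference of -0.35. Car12, a carbonic anhydrase, fell (-1.17), and Nfil3 rose (0.56). The counts of higher and lower members were 0 and 0 in replicates 1 and 2 and 7 and 2 in replicates 3 and 4. Higher and lower members came to 4 and 1 without Foxp3UP 1, Foxp3UP 2, Foxp3UP 3, Foxp3UP 4, Foxp3DN 1 or Foxp3DN 4, 2 and 1 without Foxp3DN 3, 7 and 2 without MockUP 2.

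In the 3 lipid lists the shares called were 12.5%, 23.5% and 7.69%, against 11.8% of all genes. Of 24 of 28 genes of fatty acid oxidation, 3 rose, Pparg, the nuclear receptor of lipid storage (log2 fold change 1.80 ± 0.29 SE, edgeR adjusted p = 9.30e-04), Acadl (0.62) and Eci2 (0.61). Acadl lost its call without Foxp3UP 1 or 2 or Foxp3DN 1, 3 or 4, and Eci2 without Foxp3UP 1 or Foxp3DN 3 or 4. Pparg was at 7.22 to 11.4 CPM against 2.13 to 3.48. Replicates 1 and 2 alone gave 1 higher and 0 lower members, and replicates 3 and 4 gave 6 and 2. Calls in the 2 directions came to 7 and 1 with the replicate block, 1 and 0 without Foxp3UP 1, Foxp3DN 3 or Foxp3DN 4, 2 and 1 without Foxp3DN 1, 5 and 1 without MockUP 1 or MockUP 2, 3 and 1 without MockUP 3 or MockDN 3. Of 17 of 20 genes of lipid uptake and storage, Plin2, which coats lipid droplets, was higher (log2 fold change 1.17 ± 0.17 SE, edgeR adjusted p = 4.83e-04), as were Soat1 (0.61) and Plin3 (0.43), while the receptor Scarb1 fell (-0.53). Soat1 lost its call without Foxp3UP 1 or 2 or Foxp3DN 1, 3 or 4, and Plin3 without any of these or Foxp3DN 2. By replicate set, 1 were higher and 0 lower in replicates 1 and 2, and 4 and 2 in replicates 3 and 4. With other fits the counts were 5 and 1 with the replicate block, 1 and 0 without Foxp3UP 1, Foxp3UP 2, Foxp3DN 3 or Foxp3DN 4, 3 and 0 without Foxp3UP 3, Foxp3UP 4, MockUP 3 or MockDN 4, 2 and 0 without Foxp3DN 1. Of 26 of 29 genes of fatty acid and cholesterol synthesis, Elovl6, a fatty acid elongase (log2 fold change 1.15 ± 0.18 SE, edgeR adjusted p = 7.45e-04), and Mvd (0.59), which lost its call without Foxp3UP 1 or Foxp3DN 3 or 4, rose. The first set alone, replicates 1 and 2, gave 0 higher and 0 lower, and the second, replicates 3 and 4, 3 and 5. DESeq2 gave 2 in each direction. These counts changed to 5 and 3 with the replicate block, 1 and 0 without Foxp3UP 1, Foxp3DN 3 or Foxp3DN 4, 2 and 1 without Foxp3UP 3, MockDN 2 or MockDN 3, 2 and 3 without MockUP 2.

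Genes that supply building blocks fell where they were called. Of 26 of 26 genes of one-carbon, nucleotide and pentose phosphate metabolism, 8 fell and 0 rose (30.8% called, against 11.8% of all genes). Ppat, the first enzyme of purine synthesis, was at 52.6, 48.3, 39.2 and 44.2 CPM in Foxp3UP and 70.8, 69.4, 70.6 and 70.8 CPM in Foxp3DN (log2 fold change -0.61 ± 0.09 SE, edgeR adjusted p = 5.17e-04). Mthfd1 (-0.62), Gart (-0.58), Shmt2 (-0.58), Shmt1 (-0.53), Umps (-0.47), Prps1 (-0.46) and Impdh2 (-0.39) fell on the log2 scale. Within replicates 1 and 2, calls were 0 higher and 0 lower, and within replicates 3 and 4, 2 and 12. Other fits gave 2 and 9 with the replicate block, 0 and 5 without Foxp3DN 3, 1 and 9 without MockUP 2. Of 20 of 22 genes of amino acid transport and the integrated stress response, 4 fell and 0 rose. The share called was 20%, against 11.8% of all genes. Asns, asparagine synthetase, was at 31.6 to 42.3 against 51.6 to 78 CPM (log2 fold change -0.78 ± 0.16 SE, edgeR adjusted p = 0.00537). The carriers Slc7a5 (-0.86), Slc7a1 (-0.66) and Slc1a5 (-0.49) were the others. Slc7a5 lost its call without Foxp3UP 1 or Foxp3DN 3, and Slc1a5 without those or Foxp3UP 2. In replicates 1 and 2 taken alone the counts were 0 and 0, and in replicates 3 and 4 0 and 12. The counts became 0 and 8 with the replicate block, 0 and 1 without Foxp3UP 1 or Foxp3DN 3.

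Of 26 of 26 lysosome and proton pump genes, 10 rose and 0 fell (38.5% called, against 11.8% of all genes). The list median was 0.25 against -0.03 between the Mock groups. Atp6v0d2 was followed by Atp6v0a1, another subunit of the pump, at 2.61 to 3.69 against 0.588 to 1.11 CPM (log2 fold change 1.77 ± 0.29 SE, edgeR adjusted p = 0.00117). Hexa, a hexosaminidase whose product needs the Gm2a activator, was at 43.9, 33.8, 35.2 and 34.3 CPM in Foxp3UP and 25.9, 23, 19.8 and 18.5 CPM in Foxp3DN (log2 fold change 0.75 ± 0.13 SE, edgeR adjusted p = 0.00189). The cathepsins Ctsd (0.78), Ctsb (0.51) and Ctsa (0.46) rose too. The counts of higher and lower members were 1 and 0 in replicates 1 and 2 and 11 and 0 in replicates 3 and 4. Higher and lower members came to 6 and 0 without Foxp3UP 1 or Foxp3DN 3.

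**Figure D4:**
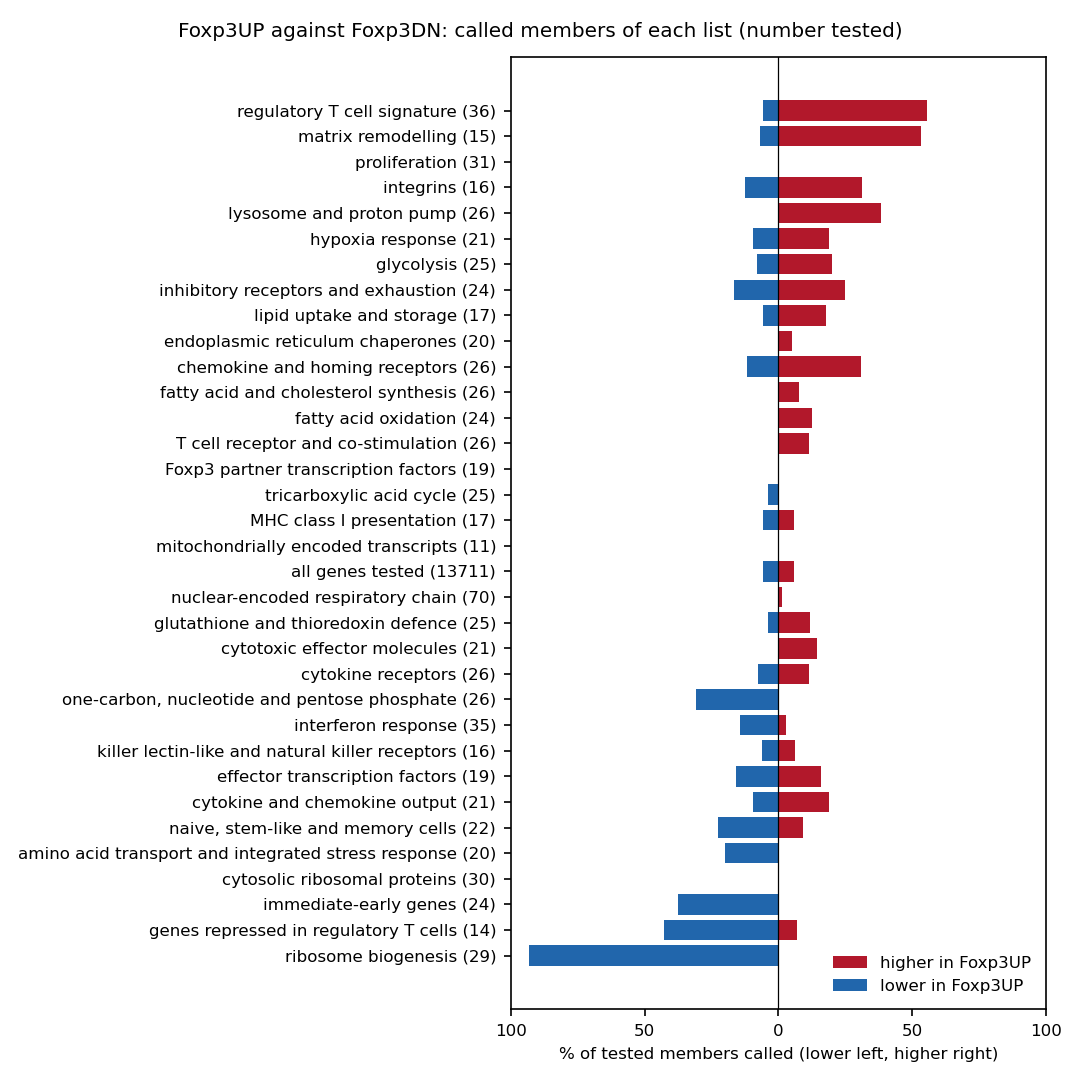
Share of the tested members of each list (number tested in brackets) called higher (red, to the right) or lower (blue, to the left) in Foxp3UP than in Foxp3DN, in percent, ordered by the list's median log2 fold change. Ribosome biogenesis has 27 of 29 members called lower and the regulatory T cell signature 20 of 36 called higher, against 6% and 5.78% over all genes.

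Cell-cycle genes were high by value without a call. Of 31 of 31 proliferation genes, 0 were called by edgeR or DESeq2 and 0 had an unadjusted p under 0.05, yet all 31 had a log2 fold change above 0, with a median of 0.77, against 0.30 between the Mock groups. The replicate sets differ most in these genes. The mean of the list, as a deviation from all libraries in log2 CPM, was 1.25, 0.82, -0.38 and -0.27 in Foxp3UP replicates 1 to 4, and 0.13, 0.48, -1.33 and -0.76 in Foxp3DN. Within each replicate number Foxp3UP lay above Foxp3DN. With the replicate block 25 members were called higher and 0 lower, and within replicates 3 and 4 alone 10 and 0, while within replicates 1 and 2 none were. Over all genes, the block called 1503 of 13711 higher, and replicates 3 and 4 alone called 1582 of 13647 higher.

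**Figure D5:**
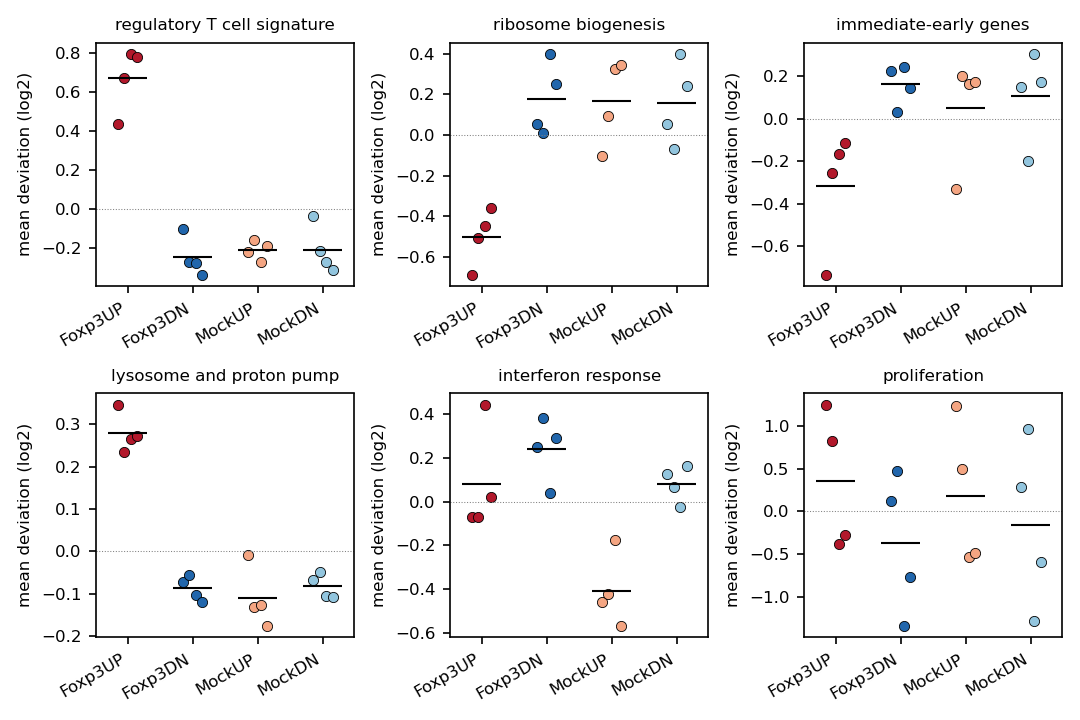
Mean deviation of 6 lists from the mean of all libraries, in log2 CPM, per library (points, replicates 1 to 4 from left to right) with the group mean (line). Ribosome biogenesis is lower in the 4 Foxp3UP libraries, at -0.69 to -0.36, than in the Foxp3DN libraries, at 0.01 to 0.40, and the proliferation list is lower in replicates 3 and 4 than in replicates 1 and 2 in all 4 groups.

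Markers of other cells in the tumour moved with some of these results, and their part in them was not tested. The summed level of 10 melanocyte and melanoma markers was 104.6 to 202.6 CPM in Foxp3UP and 56.0 to 109.5 CPM in Foxp3DN, and 87.0 to 126.6 and 36.8 to 98.3 CPM in MockUP and MockDN. Gpnmb (1.0 in the Foxp3 and 0.58 in the Mock cells) and Slc45a2 (1.65 and 1.44) were called in the Foxp3 cells, 25% of those tested, against 11.8% of all genes. All 8 melanocyte and melanoma markers tested had a log2 fold change above 0, with a median of 0.89, against 0.80 between the Mock groups. The 14 macrophage and monocyte markers summed to 56.4 to 82.1 CPM in Foxp3UP and 43.9 to 65.7 CPM in Foxp3DN. Cd68, a lysosomal protein, was the 1 called (0.97), or 11.1% of the 9 tested, against 11.8% of all genes. Of that list, 6 of the 9 members tested had a log2 fold change above 0, with a median of 0.49. C1qa was at 0.748 to 1.5 CPM in Foxp3UP against 0.148 to 0.840 CPM in Foxp3DN, C1qc at 1.33 to 2.38 against 0.814 to 1.6 CPM, and Cd163 at 0 in all 8 libraries. Csf1r went the other way, at 5.40 to 6.72 CPM in Foxp3UP against 6.59 to 9.48 CPM in Foxp3DN. Lyz2 overlapped widely, at 11.9 to 21.3 against 10.4 to 24.6 CPM. The 10 B cell markers summed to 282.2 to 359.3 CPM in Foxp3UP and 168.1 to 205.0 CPM in Foxp3DN, of which Ighm made up most. Ighm was the 1 called (0.73) of 3 tested (33.3%, against 11.8% of all genes), and Ms4a1, the gene of CD20, was at 0 in all 8 libraries.

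Of the 10 fibroblast markers, which include Thy1, 2 were tested and 1, Col3a1, was called (50%, against 11.8% of all genes). Col3a1 was at 0.264, 2.08, 1.20 and 4.34 CPM in Foxp3UP and 0.0921, 0, 0.168 and 0 CPM in Foxp3DN. Of the 8 Mock libraries only MockUP 4 held any, at 1.08 CPM. The 8 CD4 T cell markers summed to 34.6 to 48.5 CPM in Foxp3UP and 33.0 to 41.2 CPM in Foxp3DN. Of 4 tested, Izumo1r and Ccr4 were called higher and Cd40lg lower (75%, against 11.8% of all genes). The 9 natural killer markers summed to 758.9 to 1110 CPM and 681.5 to 758.4 CPM. Of 6 tested, Itga2 was called higher and Klrb1c lower (33.3%, against 11.8% of all genes). Gzma, which cytotoxic CD8 T cells also express, made up 94.1% to 95.5% of the natural killer sums, and the other markers summed to 41.2 to 55.1 and 30.9 to 39.1 CPM. Dendritic cell markers (12, of which 7 were tested and 0 called) summed to 117.3 to 152.0 and 87.4 to 156.0 CPM. Endothelial markers (9, of which 1 was tested and 0 called) summed to 53.9 to 63.2 and 58.4 to 65.7 CPM. Pecam1 made up 99.6% to 100% of the endothelial sums, and the other markers summed to at most 0.217 CPM in Foxp3UP and 0.0969 CPM in Foxp3DN. The 10 neutrophil and 7 red blood cell markers, of which 0 were tested, summed to at most 3.55 and 2.82 CPM in these 8 libraries.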

How the data were processed

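RNA from sorted cells was sequenced in 16 libraries. The deposited values are the authors' raw counts of reads, 1 column for each library. Of tools and builds, the submitters' processing notes list Subread 1.6.3, STAR 2.6.1 and mm10. Counting options and strand are not stated, so reads of overlapping, antisense or near-identical genes may be shared. Per the file headers, the deposited table also gives each gene's exonic length, which was used only in a check of the libraries. Of 55573 gene identifiers, 55394 matched a symbol.

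The 13711 genes kept by filterByExpr of edgeR (minimum count 10) were TMM-scaled and fitted in edgeR 4.0.16 under R 4.3.3 (quasi-likelihood F test, robust, two-sided, a term per group over all 16 libraries, Benjamini-Hochberg adjustment, called at adjusted p under 0.05). The SE is the log2 fold change divided by the square root of F. Foxp3 alone was also tested by exact permutation on log2(CPM + 0.5). The 33 function and 10 marker lists were described by counts and medians. The members and lists were chosen with earlier results of these data known. Named genes are Foxp3 and Thy1, the 10 highest and 10 lowest called genes without overlap whose average log2 CPM reached 1, up to 3 called members per list by adjusted p, and 5 called in both the direct contrast and the difference of effects. Other list members named were chosen after their values were seen, and some members are not reported here.

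The main fit did not pair libraries, since no label says that libraries of the same replicate number share a mouse or a day. Replicate number was a block only in alternative fits. Deviations from the group means correlated at 0.183, 0.198, 0.272 and 0.248 between Foxp3UP and Foxp3DN libraries of 1 number. Different numbers of the same set correlated too (0.429 for Foxp3UP 1 and Foxp3DN 2), and so did Foxp3 and Mock libraries of 1 arm and number (0.213 to 0.630 in UP, 0.298 to 0.582 in DN). Alternatives were RLE factors, library totals, filters, DESeq2 1.42.0, a replicate block, a term for or a restriction to replicates 1 and 2 or 3 and 4, only the 8 libraries compared, and leaving out each library (for the direct contrast, 7 of the Mock libraries were added after seeing the data). Promoters came from RefSeq (GRCm38.p6), and 9374 tested genes matched by symbol. Only the edgeR step of the direct contrast was tried on simulated counts, which held no difference between the replicate sets.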

Additional observations from a re-analysis of the deposited data

Results flagged for a closer look

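For 56 of the 90 named genes the log2 fold change of Foxp3UP minus Foxp3DN differed from that of MockUP minus MockDN (edgeR, adjusted p of the difference under 0.05). Of all genes tested, 1.83% were called in this difference. All named genes but Foxp3 and Thy1 were chosen by a call in the direct contrast, and 5 by a call in this difference as well. The count of 56 therefore follows in part from the choice of genes. The differences are given in brackets, above 0 where the Foxp3 groups gave the higher value. Among regulatory T cell and co-stimulatory genes they were Foxp3 (1.25), Il10 (3.53), Maf (2.46), Tnfrsf8 (2.56), Ctla4 (1.04), Icos (0.924), Ikzf2 (0.804), Tnfrsf4 (1.27), Fgl2 (0.975), Klrg1 (2.30) and Prdm1 (0.808). Among genes of naive cells and of T cell help they were Tcf7 (-2.19), Id3 (-1.57), Bach2 (-1.27), Btla (-1.26), Cd40lg (-1.34), Tnfsf8 (-1.99), Tnfrsf25 (-2.01) and Trat1 (-1.81). Among matrix genes they were Mmp9 (6.59), Ecm1 (1.87) and Adam8 (0.743), and among receptors and integrins Ccr3 (5.45), Ccr2 (0.919), Ltb4r1 (1.81), Cysltr1 (2.59), Itgb7 (0.857), Itgb1 (-0.994) and Itgax (-1.57). Effector genes and cytokine receptors gave Gzmb (1.16), Gzmk (1.09), Il12rb1 (1.43) and Il18rap (-0.763). Metabolic genes gave Aldoc (1.55), Gpi1 (0.532), Slc16a1 (-0.756), Bnip3 (1.46), Car12 (-1.29), Pparg (1.79), Plin2 (1.36) and Txnip (0.727), and genes of ribosome and nucleotide synthesis Nop2 (-0.899), Nop14 (-0.810), Wdr43 (-0.698), Ppat (-0.701), Mthfd1 (-0.662) and Gart (-0.701). Lysosomal genes gave Atp6v0d2 (3.30) and Gm2a (1.16). The remaining genes were Cd163l1 (-4.01), Neb (2.44), Pou6f1 (-2.05), Oaf (-1.72), Prr5l (-1.85) and Tdrp (-1.56), and the sorting marker Thy1 (-2.51), whose likeness between the Foxp3 groups was used to choose them. With arm and replicate number together as a block the difference called 1739 genes in place of 251.

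A library far from the other 3 of its group was found in 9 of 180 groups checked, where chance gives about 1 in 20. In Foxp3UP these were Cd40lg at 4.01 CPM in Foxp3UP 4, against 7.52 to 8.19 CPM in the other 3, Nr4a3 at 36.3 CPM in Foxp3UP 1, against 60.7 to 63.4 CPM in the other 3, Soat1 at 56.7 CPM in Foxp3UP 1, against 42.4 to 44.4 CPM in the other 3 and Hexa at 43.9 CPM in Foxp3UP 1, against 33.8 to 35.2 CPM in the other 3. In Foxp3DN they were Adam8 at 379 CPM in Foxp3DN 1, against 316 to 323 CPM in the other 3, Bnip3 at 214 CPM in Foxp3DN 1, against 171 to 176 CPM in the other 3, Slc16a1 at 194 CPM in Foxp3DN 2, against 239 to 248 CPM in the other 3, Ppat at 69.4 CPM in Foxp3DN 2, against 70.6 to 70.8 CPM in the other 3 and Car12 at 21.5 CPM in Foxp3DN 3, against 14.1 to 14.6 CPM in the other 3.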

How the results depend on the processing

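The 1616 calls between Foxp3UP and Foxp3DN became 2755 with the replicate block, 2931 with a term for the replicate sets, 130 within replicates 1 and 2, 3440 within replicates 3 and 4, 2492 with only the 8 libraries compared, and 842 to 2556 when 1 of the 16 libraries was left out (1451 to 1745 without any 1 Mock library other than MockUP 2). RLE factors, library totals, both filters and DESeq2 gave 1289 to 2053. The single call between the Mock groups became 2 without a filter, 35 within replicates 3 and 4, 8 with DESeq2, and 1 to 2 when 1 library was left out. The 251 calls in the difference of effects became 811 with the replicate block, 1739 with arm and number together as the block, 938 with the term for the sets, 2 and 1688 within them, 651 with DESeq2, and 99 (without MockDN 1) to 518 (without MockUP 1) when 1 library was left out. The Foxp3 difference of 1.11 on the log2(CPM + 0.5) scale ranged from 0.99 to 1.31 when 1 library was left out, and its permutation p rose above 0.05 in the 4 cases without a Foxp3DN library. The cause of these changes was not tested. The sets and the fits that leave 1 out also hold fewer libraries. No named gene changed direction under any of these settings. The replicate block ended no call of a named gene, and 46 of the 90 lost theirs within replicates 1 and 2, 6 within replicates 3 and 4. Counts of list members moved by over 1.5 times under the block in 22 of 33 lists. Genes with a few counts per library, such as Ccr3 in Foxp3DN, have fold changes whose size rests on those counts.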

Other observations

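The remaining lists are set beside the 11.8% of all genes called between Foxp3UP and Foxp3DN. The shares called were 4% for the tricarboxylic acid cycle, 1.43% for the nuclear respiratory chain and 0% for mitochondrially encoded transcripts. They were 5% for endoplasmic reticulum chaperones, 11.8% for MHC class I presentation and 16% for glutathione and thioredoxin defence. Cytokine receptors gave 19.2%, and killer lectin-like and natural killer receptors 12.5%. Of 25 of 25 genes of the tricarboxylic acid cycle, Suclg2, a subunit of succinyl-CoA ligase, fell by 0.43 on the log2 scale (edgeR adjusted p = 0.0172) and 0 were higher. Replicates 1 and 2 alone gave 0 higher and 0 lower members, and replicates 3 and 4 gave 1 and 4. Calls in the 2 directions came to 3 and 1 with the replicate block, 0 and 0 without Foxp3UP 1, Foxp3DN 3 or Foxp3DN 4. Of 70 of 70 nuclear genes of the respiratory chain, Ndufv3, of complex I, was higher (log2 fold change 0.45 ± 0.12 SE, edgeR adjusted p = 0.0194). The list median was 0.00108. By replicate set, 0 were higher and 0 lower in replicates 1 and 2, and 1 and 14 in replicates 3 and 4. Over all genes, replicates 3 and 4 alone called 3440 of 13647, 1858 of them lower. With other fits the counts were 1 and 1 with the replicate block, 0 and 0 without Foxp3UP 1, Foxp3DN 1, Foxp3DN 2 or Foxp3DN 4, 2 and 3 without MockUP 2. Of 11 of 13 mitochondrially encoded transcripts, 0 were called by edgeR or DESeq2 and 0 had an unadjusted p under 0.05. Of 20 of 20 chaperone genes of the endoplasmic reticulum, Xbp1 was higher (0.32). The first set alone, replicates 1 and 2, gave 0 higher and 0 lower, and the second, replicates 3 and 4, 5 and 5. These counts changed to 2 and 3 with the replicate block or without MockUP 2, 0 and 0 without Foxp3UP 2, Foxp3UP 4, Foxp3DN 1, Foxp3DN 2 or Foxp3DN 4, 0 and 1 without Foxp3UP 3, 1 and 1 without MockDN 2. Of 17 of 17 genes of MHC class I presentation, Tap2 was higher (0.31) and Erap1 lower (-0.29). Within replicates 1 and 2, calls were 0 higher and 0 lower, and within replicates 3 and 4, 3 and 1. Other fits gave 0 and 0 without Foxp3UP 1 or Foxp3DN 3, 1 and 0 without Foxp3UP 2, Foxp3UP 3, Foxp3UP 4, Foxp3DN 1, Foxp3DN 2 or Foxp3DN 4, 3 and 1 without MockUP 2. Of 25 of 25 genes of glutathione and thioredoxin defence, Txnip, an inhibitor of thioredoxin and of glucose uptake (log2 fold change 0.83 ± 0.09 SE, edgeR adjusted p = 2.05e-05), Prdx4 (1.13) and Srxn1 (0.38) were higher and Gclc (-0.46) lower. In replicates 1 and 2 taken alone the counts were 1 and 0, and in replicates 3 and 4 4 and 7. The counts became 6 and 3 with the replicate block, 4 and 2 without MockUP 2.

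Of 26 of 27 cytokine receptor genes, Il12rb1, a chain of the interleukin 12 receptor, stood at 147, 128, 136 and 134 CPM in Foxp3UP and 51.9, 58.2, 48.7 and 54.7 CPM in Foxp3DN (log2 fold change 1.35 ± 0.11 SE, edgeR adjusted p = 1.05e-06). Il18rap, a chain of the interleukin 18 receptor, was lower (log2 fold change -0.67 ± 0.09 SE, edgeR adjusted p = 2.97e-04). In all, 3 were higher and 2 lower. The counts of higher and lower members were 2 and 1 in replicates 1 and 2 and 8 and 3 in replicates 3 and 4. Higher and lower members came to 6 and 4 with the replicate block, 2 and 1 without Foxp3UP 1, Foxp3UP 2 or Foxp3DN 4, 1 and 2 without Foxp3UP 3, 1 and 1 without Foxp3UP 4 or Foxp3DN 3, 5 and 5 without MockUP 2. Of 16 of 21 killer lectin-like and natural killer receptors, Klrg1 was higher and Klrb1c lower (-1.37), the latter at 0.217 to 0.831 against 1.01 to 1.38 CPM. Replicates 1 and 2 alone gave 1 higher and 0 lower members, and replicates 3 and 4 gave 2 and 1. Calls in the 2 directions came to 3 and 2 with the replicate block, 1 and 0 without Foxp3UP 1, Foxp3UP 3, Foxp3UP 4, Foxp3DN 1, Foxp3DN 2, Foxp3DN 3, Foxp3DN 4, MockUP 1, MockUP 3 or MockDN 2, 2 and 2 without MockUP 2.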
